A study of Mus musculus with 9 samples.

Results

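The 10 genes described here, Gclc, Gclm, Gsr, Gpx2, Slc7a11, Nqo1, Hmox1, Txnrd1, Srxn1 and Akr1b8, are targets of the transcription factor Nrf2 that make or use glutathione or detoxify reactive compounds. They were taken by symbol from a table of 50600 genes, and all 10 had exactly 1 row. Their names were chosen from earlier results on these same libraries, so that their own values are given as a description and no p-value is given for any of them. Counts of them past a threshold are printed beside the share of all genes past it, and nothing is read from those counts. Nrf2 (encoded by Nfe2l2) is held in the cytoplasm and sent for degradation by Keap1. When electrophiles or oxidants modify Keap1, Nrf2 accumulates, pairs with small Maf proteins and binds antioxidant response elements near its target genes. In the gut epithelium, which meets bile acids, food toxicants and bacterial products, these targets keep glutathione reduced and remove peroxides, quinones and aldehydes.

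RNA was sequenced from 9 mouse libraries in 3 groups of 3. WT small intestinal organoids (labelled as C57BL/6, from 3 mice, derived at 2 to 5 months of age) were grown for 24 hr in equal parts of fresh medium with EGF, Noggin and R-spondin1 and of conditioned medium (cM), collected either from tumoroids (T-cM) or from WT organoids (WT-cM). Tumoroids were cultures of intestinal tumours of Apc1638N/+ mice (strain labelled MIX, 3 mice, more than 6 months old) and grew for 24 hr in medium without R-spondin1 and without cM. In Apc1638N/+ mice tumours arise where the remaining Apc allele is lost spontaneously. The titles and the treatment field of the 6 organoid libraries name opposite media, and the names T-cM-titled and WT-cM-titled used here follow the titles alone. If the treatment field is right, every difference between these groups has the opposite direction. Genotype, strain label, origin, age and medium differed together between organoids and tumoroids and cannot be told apart.

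Between 16541635 and 25170966 reads were counted on genes per library, and 3 reads correspond to 0.103 to 0.203 CPM (counts scaled to library size). CPM were normalised with the TMM method over the 9 libraries and are used between libraries, whereas levels of different genes are compared only in TPM, which account for gene length. All 9 libraries expressed Epcam (738 to 1150 CPM) and Cdh1 (721 to 1030 CPM), the defining epithelial markers. The summed level of 8 enterocyte markers was 14700 to 29900 CPM in the 6 organoid libraries and 27.7 to 212 CPM in the 3 tumoroid libraries, and all 8 were lower in tumoroids (edgeR, adjusted p under 0.05). Leukocyte markers summed to 4.83 to 7.49 CPM in organoids and 46.4 to 219 CPM in tumoroids, carried by Cd14, Cd68 and Csf1r, while Tyrobp was at 0 in all 9 libraries and Adgre1 at 0 in all 3 tumoroid libraries. Markers of fibroblasts, muscle and endothelium stayed under 3 CPM in sum in every library (0.407 to 2.78 CPM). In such bulk RNA, fewer cells of a type and less RNA per cell cannot be told apart. The part of cell type composition in the values below was not tested.

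Promoter sequence was at hand for 7 of the 10 genes (RefSeq, GRCm38.p6, 250 bases before to 50 after each start site, with 3 start sites for Txnrd1). It was searched on both strands for TGACNNNGC, the core of the antioxidant response element, because all 10 genes are named as targets of the factor that binds it. The core was present for 3 of the 7 genes, Gclm, Txnrd1 and Srxn1, against 14% of 27025 genes and 12.4% of 32851 windows of the same length. A looser form, TGANNNNGC, occurred in 7 of the 9 windows of the 7 genes (in none for Nqo1) and in 41.3% of all windows. The 29-base stretches around the 3 matches follow 5′ to 3′ on the strand of the gene, with the core in capitals. It lay on the opposite strand in each and so reads GCNNNGTCA. None of the 3 overlapped an AP-1 site (TGANTCA).
Gclm, chr3:122245413-122245441, core 134 to 126 bases before the start site: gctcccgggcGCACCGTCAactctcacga
Txnrd1, chr10:82859104-82859132, core 92 to 84 bases before 1 of the 3 start sites: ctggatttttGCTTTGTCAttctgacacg
Srxn1, chr2:152105542-152105570, core 28 to 36 bases after the start site: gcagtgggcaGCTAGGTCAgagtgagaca
These matches are a description of the letters in a short window. They say nothing about binding, and elements farther from the start site were not searched.

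Gclc and Gclm encode the catalytic and the modifier subunit of glutamate-cysteine ligase, the rate-limiting enzyme of glutathione synthesis. Gclc (ENSMUSG00000032350.9, chr9:77754535-77794485, plus strand, mm10) had 535, 721 and 603 CPM in the T-cM-titled organoids, 320, 261 and 222 CPM in the WT-cM-titled organoids and 48.1, 75.2 and 74.5 CPM in the tumoroids. The 3 groups did not overlap, with the T-cM-titled libraries highest and the tumoroids lowest. Replicate numbers pair the organoid libraries, and the ratio of T-cM-titled to WT-cM-titled was 1.67, 2.76 and 2.71 in pairs 1 to 3. The fitted difference was 1.23 ± 0.10 (log2, SE), or 2.35-fold, the largest among the 10 genes. Tumoroids were lower than the mean of both organoid groups by 2.63 ± 0.22 on the log2 scale (a log2 fold change of -2.63), which is 6.18-fold. Set against each organoid group alone, the log2 difference was -2.02 from WT-cM-titled and -3.23 from T-cM-titled organoids.

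Gclm (ENSMUSG00000028124.15, chr3:122245557-122270732, plus strand) differed less between the organoid groups. It had 234, 212 and 208 CPM in T-cM-titled, 201, 210 and 188 CPM in WT-cM-titled organoids and 60.8, 79.6 and 90.1 CPM in tumoroids. The organoid groups overlapped, although T-cM-titled was higher in 3 of 3 pairs by ratios of 1.16, 1.01 and 1.10, with a fitted log2 difference of 0.14 ± 0.08 (SE), and the tumoroids lay below all 6 organoid libraries (-1.44 ± 0.15). The ratio of Gclc to Gclm transcripts, in TPM, was thus 3.81, 5.68 and 4.85 in T-cM-titled organoids, 2.65, 2.08 and 1.97 in WT-cM-titled organoids and 1.32, 1.58 and 1.38 in tumoroids. The means were 4.78 ± 0.936, 2.24 ± 0.365 and 1.43 ± 0.134 (SD, n = 3 each), and the 3 groups did not overlap. In TPM Gclc exceeded Gclm in every library. In reads, which are not scaled by gene length, Gclm was the higher one in the 3 tumoroids (1343, 2142 and 2624 against 1062, 2023 and 2171).

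**Figure D1:**
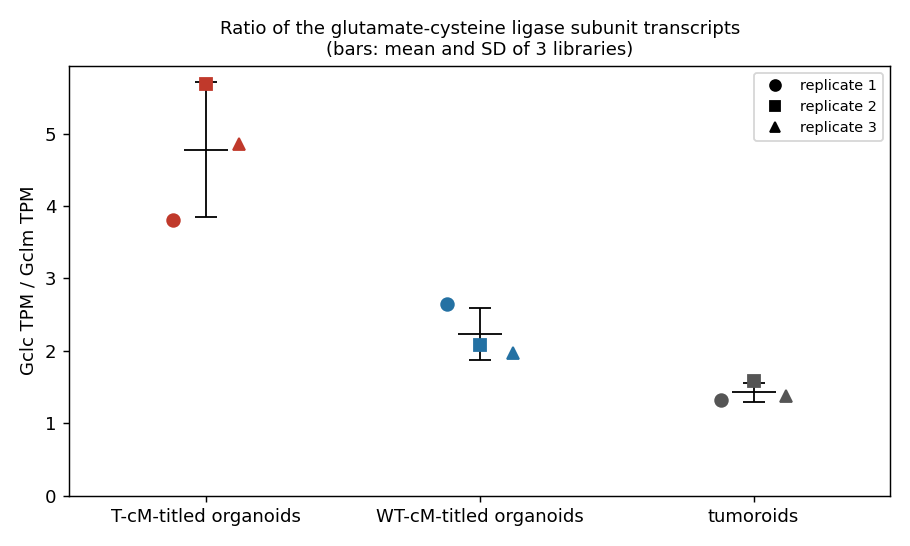
Ratio of Gclc to Gclm in TPM (vertical axis, from 0) for each library of the 3 groups (horizontal axis), with symbols for replicates 1 to 3 and bars for the mean and SD of 3 libraries. T-cM-titled organoids lie between 3.81 and 5.68, WT-cM-titled organoids between 1.97 and 2.65 and tumoroids between 1.32 and 1.58.

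Slc7a11 (ENSMUSG00000027737.10, chr3:49892526-50443614, minus strand) encodes xCT, the cystine and glutamate exchanger that brings in the cysteine for glutathione. Its values were 55.6, 54.5 and 38.1 CPM in T-cM-titled organoids, 42.8, 51.8 and 28.4 CPM in WT-cM-titled organoids and 25.6, 57.8 and 59.7 CPM in tumoroids. All 3 groups overlapped, and tumoroid 1 was the lowest of the 9 libraries while tumoroids 2 and 3 were the highest. Within the pairs T-cM-titled was higher in 3 of 3, by ratios of 1.30, 1.05 and 1.34, and the fitted log2 difference was 0.30 ± 0.10 (SE). Between tumoroids and organoids it was 0.08 ± 0.29, a difference whose sign held in 18 of 22 alternative analyses.

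Gsr and Gpx2 recycle and spend glutathione. Gsr (ENSMUSG00000031584.16, chr8:33652523-33698163, plus strand) encodes glutathione reductase, which regenerates reduced glutathione with NADPH. It had 433, 371 and 327 CPM in T-cM-titled, 405, 311 and 272 CPM in WT-cM-titled organoids and 168, 152 and 132 CPM in tumoroids. The organoid groups overlapped, with T-cM-titled higher in 3 of 3 pairs by 1.07, 1.19 and 1.20 (log2 difference 0.22 ± 0.08), and all 3 tumoroids were below all organoids (-1.23 ± 0.17).

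Gpx2 (ENSMUSG00000042808.8, chr12:76792333-76795554, minus strand) encodes the glutathione peroxidase of the gastrointestinal epithelium, and it was the only one of the 10 genes with every tumoroid above every organoid library. The values were 488, 411 and 282 CPM in T-cM-titled, 502, 262 and 185 CPM in WT-cM-titled organoids and 543, 510 and 585 CPM in tumoroids. Among organoids the gene varied mainly with the replicate number, since pair 1 was the highest in both groups and pair 3 the lowest. T-cM-titled was lower in pair 1 (ratio 0.973) and higher in pairs 2 and 3 (1.57 and 1.52), with a fitted log2 difference of 0.42 ± 0.10. The tumoroid difference was 0.63 ± 0.29, and the gap between the lowest tumoroid (510 CPM) and the highest organoid library (502 CPM) was small.

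Txnrd1 and Srxn1 belong to the thioredoxin and peroxiredoxin arm, which reduces protein disulfides and peroxides. Txnrd1 (ENSMUSG00000020250.10, chr10:82833951-82897712, plus strand) encodes cytosolic thioredoxin reductase and had 573, 550 and 500 CPM in T-cM-titled, 546, 551 and 516 CPM in WT-cM-titled organoids and 231, 254 and 217 CPM in tumoroids. The pair ratios in organoids were 1.05, 0.998 and 0.968 (log2 difference 0.02 ± 0.07), and the organoid groups overlapped. Tumoroids were lower than every organoid library (-1.21 ± 0.13). Srxn1 (ENSMUSG00000032802.8, chr2:152105516-152111376, plus strand) encodes sulfiredoxin, which repairs overoxidised peroxiredoxins. It had 255, 259 and 226 CPM in T-cM-titled, 226, 280 and 256 CPM in WT-cM-titled organoids and 28.4, 38.7 and 37.9 CPM in tumoroids. Its organoid pairs went in both directions (1.13, 0.925 and 0.883, log2 difference -0.03 ± 0.08), whereas tumoroids were 7.16-fold lower (-2.84 ± 0.16).

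Nqo1 and Akr1b8 detoxify quinones and aldehydes. Nqo1 (ENSMUSG00000003849.8, chr8:107388225-107403206, minus strand) encodes NAD(P)H quinone dehydrogenase, a commonly used readout of Nrf2. It had 515, 576 and 492 CPM in T-cM-titled, 373, 324 and 267 CPM in WT-cM-titled organoids and 16.2, 26.1 and 32.0 CPM in tumoroids. As for Gclc, the 3 groups did not overlap and the T-cM-titled group was the highest, with pair ratios of 1.38, 1.78 and 1.84 (log2 difference 0.74 ± 0.08). The tumoroid level was 16.6-fold lower than the organoid mean (-4.05 ± 0.26), the largest difference among the 10 genes. Akr1b8 (ENSMUSG00000029762.6, chr6:34354119-34368463, plus strand) encodes an aldo-keto reductase and had 322, 260 and 174 CPM in T-cM-titled, 197, 131 and 81.5 CPM in WT-cM-titled organoids and 62.1, 121 and 125 CPM in tumoroids. The organoid groups overlapped because both were highest in pair 1 and lowest in pair 3, but within each pair the T-cM-titled library was higher, by 1.63, 1.98 and 2.13 (log2 difference 0.94 ± 0.08). Tumoroids overlapped with WT-cM-titled organoids and lay below all T-cM-titled ones (-0.85 ± 0.33 against the mean of both).

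Hmox1 (ENSMUSG00000005413.8, chr8:75093621-75100589, plus strand) encodes heme oxygenase 1, which breaks heme down to biliverdin, carbon monoxide and iron, and is also under the repressor Bach1. It had 6.98, 12.3 and 16.2 CPM in T-cM-titled, 4.45, 5.95 and 10.9 CPM in WT-cM-titled organoids and 5.89, 19.5 and 33.8 CPM in tumoroids. T-cM-titled was higher in 3 of 3 pairs (1.57, 2.07 and 1.49, log2 difference 0.76 ± 0.14), although the groups overlapped. The tumoroids spread over a wider range than both organoid groups together, and their fitted log2 difference was 1.11 ± 0.48. Leukocytes also express Hmox1, and of the 6 leukocyte markers Cd14, Cd68 and Csf1r were higher in tumoroids, whereas Ptprc was under 1 CPM in all 9 libraries and Tyrobp and Adgre1 were at 0 in the tumoroids. Their part in this value was not tested.

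**Figure D2:**
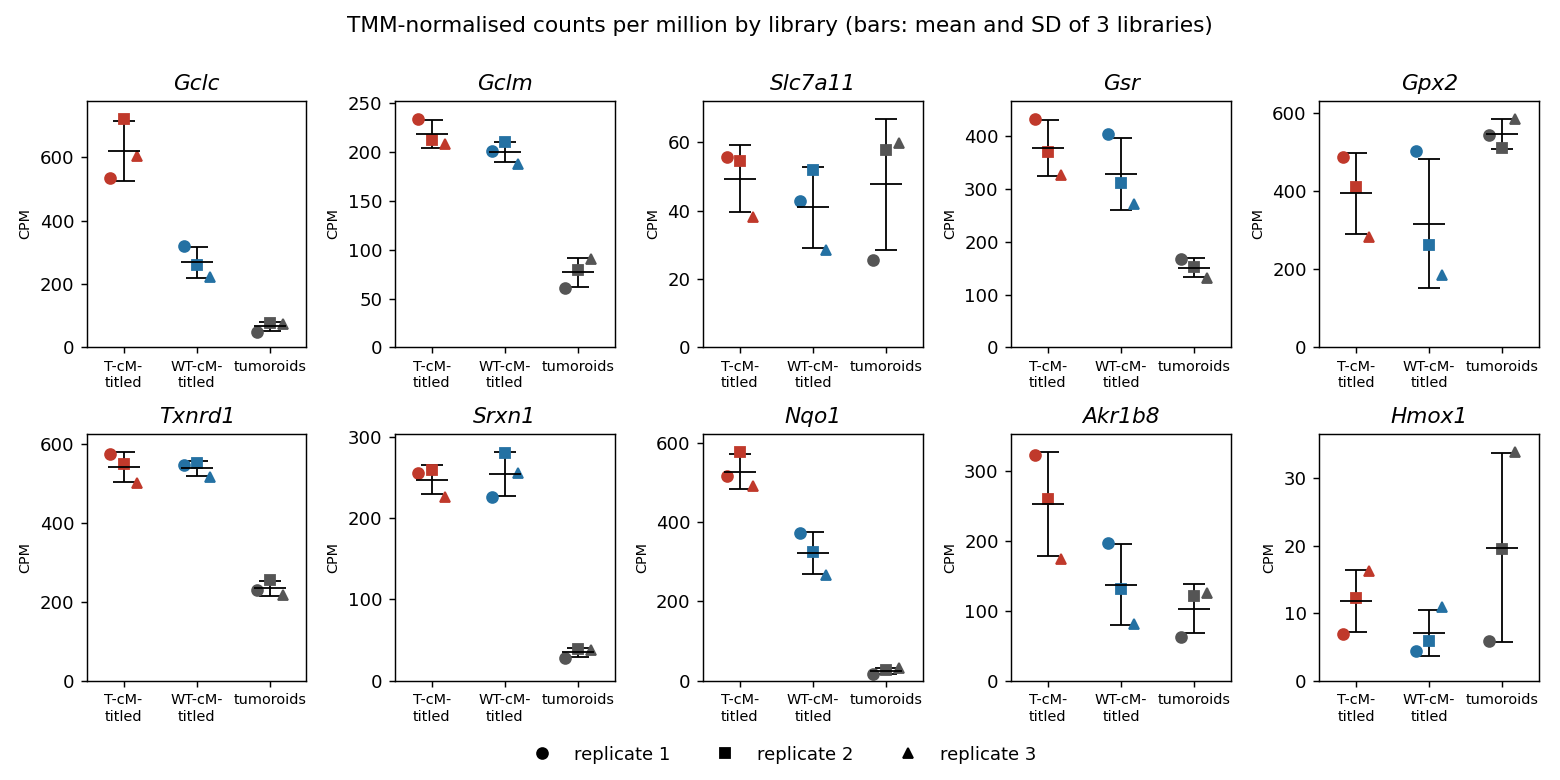
TMM-normalised CPM (vertical axes, from 0, on a separate scale for each gene) of the 10 genes in T-cM-titled organoids, WT-cM-titled organoids and tumoroids, with symbols for replicates 1 to 3 and bars for the mean and SD of 3 libraries. Gclc and Nqo1 separate all 3 groups, Gclm, Gsr, Txnrd1 and Srxn1 separate tumoroids from organoids only, and Slc7a11, Akr1b8 and Hmox1 overlap between tumoroids and organoids.

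Counted together, 7 of the 10 genes were higher in the T-cM-titled library of 3 of 3 pairs and 0 were lower in all 3, where 18.9% of the 16208 genes tested were higher and 27% lower in 3 of 3 pairs. In 2 of 10 (Gclc and Nqo1) all T-cM-titled libraries lay above all WT-cM-titled ones and in 0 they lay below, beside 5.12% and 5.28% of all genes. At an adjusted p under 0.05 (edgeR quasi-likelihood fit, Benjamini-Hochberg over all genes), 6 were past the threshold as higher (Gclc, Gpx2, Slc7a11, Nqo1, Hmox1 and Akr1b8) and 0 as lower, also at an unadjusted p under 0.05, beside 5.03% and 5.05% of all genes. With a log2 difference over 1 in addition, Gclc remained (1 higher, 0 lower), beside 0.673% and 0.432% of all genes. The median log2 difference of the 10 genes was 0.36, and that of all tested genes 0. The genes were chosen with this comparison known, so nothing is read from these shares. The count of 6 was 4 with limma voom and 4 with DESeq2, and it went to 0 when replicate pair 2 was left out and when the pairing was not modelled, settings in which 1 (Ranbp3l, named after its values were seen) and 0 of all 16208 genes were past the threshold. The fitted difference of Gclc in the alternatives ranged from 1.10 to 1.46 and that of Nqo1 from 0.65 to 0.87.

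In tumoroids against the mean of both organoid groups, 6 of 10 genes (Gclc, Gclm, Gsr, Nqo1, Txnrd1 and Srxn1) lay below every organoid library and 1 (Gpx2) above, beside 20.2% and 25.6% of all genes. The same 6 were past the threshold as lower with or without the fold limit and 0 as higher, beside 20.8% lower and 29.6% higher at adjusted p alone and 12.1% lower and 21% higher with the fold limit. At an unadjusted p under 0.05, 1 gene was higher (Hmox1). The genes were chosen with this comparison known as well, so nothing is read from these counts. The median log2 difference was -1.22 for the 10 genes and 0.16 for all tested genes. This comparison depends on scaling, because TMM factors differed between organoids and tumoroids. Scaling to total counts moved the median of all genes up by 0.39 on the log2 scale and the split of all calls from 3400 higher and 1963 lower to 4759 higher and 1362 lower. Under that scaling 2 of the 10 genes (Gpx2 and Hmox1) were past the threshold as higher. The 6 lower genes kept negative differences in all 22 alternatives, with Nqo1 between -4.41 and -3.55, Srxn1 between -2.93 and -2.30, Gclc between -3.23 and -2.02, and Txnrd1 closest to 0 at -0.68. Gsr and Gclm came as close as -0.69 and -0.92, so that these and Txnrd1 fell short of the fold limit in at least 1 alternative.

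The comparisons between organoid groups and between tumoroids and organoids share the 6 organoid libraries, and their values are only set side by side. Gclc and Nqo1 had positive differences between the organoid groups (1.23 and 0.74) and negative ones in tumoroids (-2.63 and -4.05), with no overlap between any of the 3 groups. Hmox1 and Gpx2 had positive differences in both (0.76 and 1.11, and 0.42 and 0.63). Txnrd1 and Srxn1 had values near 0 between the organoid groups (0.02 and -0.03, with the same sign in 10 and 11 of 13 alternatives) and -1.21 and -2.84 in tumoroids. The summed level of all 10 genes was 2870 to 3430 CPM in T-cM-titled organoids, 2030 to 2820 CPM in WT-cM-titled organoids and 1190 to 1390 CPM in tumoroids, with means of 3240 ± 321, 2410 ± 395 and 1300 ± 102 CPM (SD, n = 3 each).

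**Figure D3:**
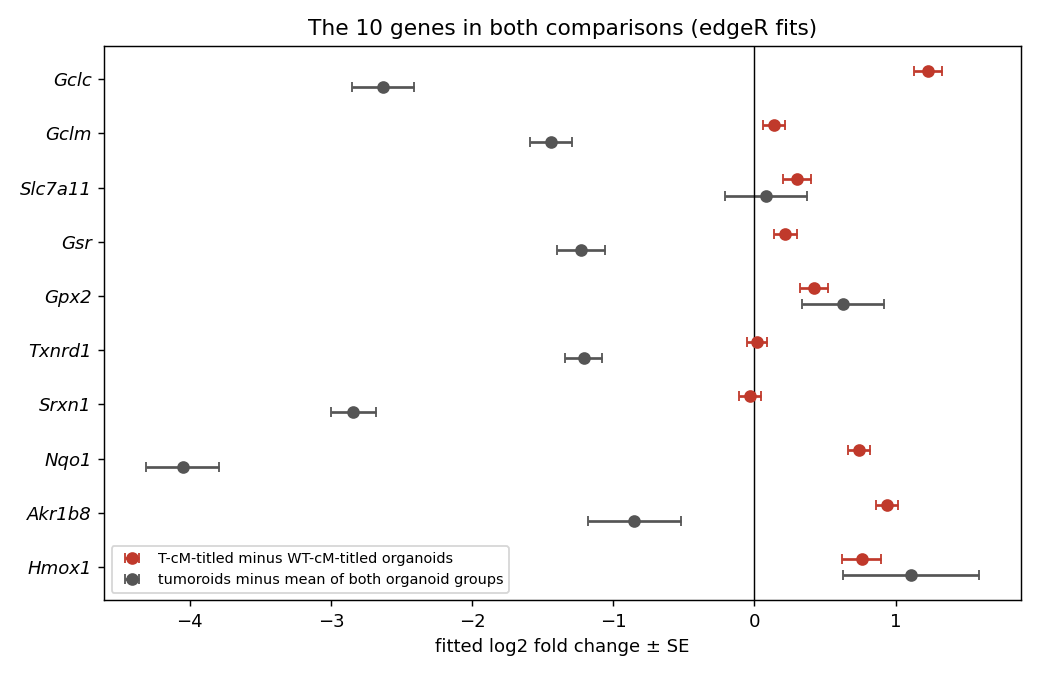
Fitted log2 fold change and SE (horizontal axis) of the 10 genes (vertical axis) between the organoid groups (T-cM-titled minus WT-cM-titled, red) and between tumoroids and the mean of both organoid groups (grey), which share the organoid libraries. Gclc runs from 1.23 to -2.63 and Nqo1 from 0.74 to -4.05, while Gpx2 and Hmox1 are positive in both.

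Per transcript length, Gpx2 was the most abundant of the 10 in each group, at 919 ± 275 TPM in T-cM-titled organoids, 741 ± 439 TPM in WT-cM-titled organoids and 1810 ± 150 TPM in tumoroids (SD, n = 3 each). In T-cM-titled organoids it was followed by Nqo1 (841 ± 79.6 TPM), which overlapped with it, and then by Akr1b8 (419 ± 138 TPM) and Gclc (407 ± 56.7 TPM), which also overlapped with each other. The order below was Gsr (340 ± 61.2), Srxn1 (217 ± 22.4), Txnrd1 (189 ± 20.2), Gclm (85.9 ± 8.99), Hmox1 (16.6 ± 5.95) and Slc7a11 (8.82 ± 2.02 TPM), where Gsr overlapped with Gclc and Srxn1 with Txnrd1. In WT-cM-titled organoids Gclc had 175 ± 44.6 TPM, a mean within the range of Txnrd1 (185 ± 17.9 TPM). In tumoroids the second place went to Akr1b8 (245 ± 94.8 TPM), which overlapped with Gsr (192 ± 18.7 TPM), and Nqo1 had 56.9 ± 20.5 TPM, with a range that overlapped those of Gclc (62.4 ± 17.9), Srxn1 (44.1 ± 9.78), Gclm (43.4 ± 10.3) and Hmox1 (40.6 ± 29.1 TPM). Slc7a11 had the lowest mean in each group.

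The libraries of a group also differed among themselves. Replicate 3 was the lowest of its group for 8 of the 10 genes in T-cM-titled organoids and for 8 of 10 in WT-cM-titled organoids, and tumoroid 1 was the lowest tumoroid for 7 of 10. The exceptions were Hmox1 in both organoid groups, Gclc in T-cM-titled and Srxn1 in WT-cM-titled organoids, which were lowest in replicate 1. Hmox1 was highest in replicate 3 of all 3 groups. Such counts were not made for all genes, so nothing about the 10 genes is read from them. Over the 6 organoid libraries, the genes whose centred log2 levels came nearest to the average of the 10 were Abcc3 (root mean square distance 0.0568), Adss (0.0627), Ythdf2 (0.0687), Gabarapl1 (0.0761) and Pkp4 (0.0762), out of 10365 genes compared. Abcc3 encodes an exporter of conjugated bile acids and glucuronides. Of the 10 genes themselves Nqo1, which is part of this average, was nearest to it, and 123 of the 10365 compared genes were nearer. Gclc had 7245 of them nearer and Hmox1, the farthest of the 10, had 9707. The average is thus no profile that all 10 genes share.

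The regulators of the response were examined with 80 further redox genes in 8 lists, none of which is one of the 10 (79 were tested). They carry tests with p-values adjusted over all genes, but these lists too were chosen with earlier results of these libraries known, so that their counts are no independent evidence of a direction. Between the organoid groups 16 of the 79 were higher in the T-cM-titled libraries and 9 were lower (20.3% and 11.4%, beside 5.03% and 5.05% of all genes), 0 of them with a log2 difference over 1 in each direction (also 0 with limma voom and DESeq2, and 1 higher and 0 lower at an unadjusted p under 0.05 in edgeR), and their median was 0.04. All fold changes in these lists are from edgeR with Benjamini-Hochberg adjustment. In tumoroids 18 were higher and 42 lower (22.8% and 53.2%, beside 29.6% and 20.8% of all genes, so that the higher share lay below that of all genes), with 11 and 27 past the fold limit (21% and 12.1% of all genes were) and a median of -0.61, against 0.16 for all tested genes. Like those of the 10 genes, the calls between the organoid groups went to 0 and 0 without modelling the pairs and without pair 2. Where limma voom or DESeq2 lost the call of a gene named below between the organoid groups, their adjusted p is given.

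Among 11 regulators, in T-cM-titled organoids 3 were higher and 0 lower (27.3% and 0%), and 4 were higher and 4 lower in tumoroids (36.4% each, beside the 29.6% and 20.8% of all genes). Nfe2l2, the gene for Nrf2 itself, had 514, 503 and 418 CPM in T-cM-titled and 477, 580 and 436 CPM in WT-cM-titled organoids (log2 difference -0.04 ± 0.08, adjusted p = 0.83), and it was lower in tumoroids at 218, 218 and 279 CPM (-1.03 ± 0.16, adjusted p = 0.00055). Keap1, its inhibitor, passed the threshold in neither comparison (-0.01, and -0.30 with adjusted p = 0.075, with a positive sign in tumoroids under total-count and TPM scaling). Mafg, a small Maf partner of Nrf2, was higher in all T-cM-titled libraries (68.3, 84.4 and 78.1 CPM) than in the WT-cM-titled ones (64.7, 54.1 and 63.6 CPM, log2 difference 0.35 ± 0.10, adjusted p = 0.017) and higher in tumoroids (0.53 ± 0.14, adjusted p = 0.011, but 0.11 against T-cM-titled organoids alone). Its organoid call was lost with limma voom (adjusted p = 0.11) and DESeq2 (adjusted p = 0.068). Mafk (0.30, adjusted p = 0.032) and Sqstm1 (0.33, adjusted p = 0.0044), which encodes the autophagy receptor p62 that binds Keap1, were also higher in T-cM-titled organoids, where Mafk passed in 4 of 13 alternatives and was lost with limma voom (adjusted p = 0.11) and DESeq2 (adjusted p = 0.1). Of the 3 regulators called, Sqstm1 passed with both of these tools. Bach1, a repressor at the same elements, was lower in tumoroids (-0.79 ± 0.21, adjusted p = 0.010, and 0.11 with total counts) and had -0.09 between the organoid groups (adjusted p = 0.61). Its tumoroid difference passed in 20 of 22 alternatives, among which it came as close to 0 as -0.23 and its adjusted p reached 0.31. Maff was higher in tumoroids (1.59 ± 0.30, adjusted p = 0.0017). Nfe2l3, a relative of Nrf2, had 0 to 4 reads in each organoid library and 261, 208 and 1197 reads in the tumoroids.

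Of 7 genes that supply NADPH, the electron donor of Gsr, Txnrd1 and Nqo1, in T-cM-titled organoids 4 were higher and 0 lower, and 7 of 7 were lower in tumoroids, 6 of them also against WT-cM-titled organoids alone. Of all genes, 5.03% were higher and 5.05% lower between the organoid groups, and 20.8% were lower in tumoroids. Idh1, the cytosolic isocitrate dehydrogenase, had 1140, 1840 and 1620 CPM in T-cM-titled, 946, 1190 and 974 CPM in WT-cM-titled organoids and 190, 242 and 343 CPM in tumoroids (0.56 ± 0.08, adjusted p = 1.4e-05, and -2.29 ± 0.25, adjusted p = 6.5e-05). G6pdx, the entry to the pentose phosphate pathway, differed by 0.42 ± 0.08 (adjusted p = 0.00059) and -0.82 ± 0.22 (adjusted p = 0.010). Its tumoroids overlapped with the organoids, and against WT-cM-titled organoids alone the call was lost (-0.63, adjusted p = 0.061). Pgd, its next dehydrogenase, differed by 0.32 ± 0.07 (adjusted p = 0.0043) and -2.54 ± 0.18 (adjusted p = 5e-06), and its 3 groups did not overlap. Me1, the cytosolic malic enzyme, differed by 0.32 ± 0.07 (adjusted p = 0.0047) and -1.14 ± 0.31 (adjusted p = 0.013), and 12.3% of the 100-base windows of its transcripts are shared with another gene. Taldo1 (-1.49) and Nadk (-0.89) were lower in tumoroids and had 0.01 and -0.03 between the organoid groups.

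Of 13 other genes of glutathione synthesis and transport, in T-cM-titled organoids 2 were higher and 2 lower (15.4% each, beside 5.03% and 5.05% of all genes). In tumoroids 3 were higher and 5 lower (23.1% and 38.5%, beside 29.6% and 20.8% of all genes). Slc3a2, the heavy chain that pairs with xCT, was higher in T-cM-titled organoids (0.35 ± 0.08, adjusted p = 0.0057), as was Abcc4, an exporter that also carries glutathione (0.57 ± 0.19, adjusted p = 0.049). Abcc4 passed in only 2 of 13 alternatives (limma voom adjusted p = 0.15, DESeq2 adjusted p = 0.25), and Slc3a2 was lost with limma voom (adjusted p = 0.069). Ggt1 and Dpep1, brush border enzymes that take extracellular glutathione apart, were lower in T-cM-titled organoids (-0.44, adjusted p = 0.0073, and -0.64, adjusted p = 8.4e-05). Ggt1 passed in 5 of 13 alternatives and was lost with limma voom (adjusted p = 0.14) and DESeq2 (adjusted p = 0.43), and Dpep1 was lost with DESeq2 (adjusted p = 0.12). Ggt1 had 154 to 304 CPM in the organoid libraries and 0.186 to 0.309 CPM in the tumoroids (adjusted p = 3.4e-07), and Dpep1 had 149 to 360 CPM and 0.206 to 0.498 CPM (adjusted p = 9.6e-07). Cbs, which feeds cysteine synthesis from homocysteine, went the other way, from 0.339 to 0.793 CPM in organoids to 10.6, 18.5 and 17.7 CPM in tumoroids (4.83 ± 0.34, adjusted p = 5.1e-06). Cth, in the same route and list and named after its values were seen, was lower in tumoroids than in every organoid library (-2.06 ± 0.46, adjusted p = 0.0045). The conjugate exporters Abcc1 (1.57) and Abcc4 (2.20) were also higher in tumoroids. Of 8 enterocyte markers, 4 were lower and 1 higher in T-cM-titled organoids, and 8 of 8 were lower in tumoroids. Of 6 markers of stem and dividing cells, 4 were lower and 0 higher in T-cM-titled organoids, and 3 were higher and 0 lower in tumoroids. Of 6 secretory markers 2 were lower between the organoid groups and 4 in tumoroids, with 0 higher in both. Of all genes, 5.05% were lower and 5.03% higher between the organoid groups, and 20.8% lower and 29.6% higher in tumoroids. The part of these markers in the redox differences was not tested.

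Among 16 further enzymes for quinones, aldehydes and carbonyls, in T-cM-titled organoids 4 were higher and 1 lower (25% and 6.25%, beside 5.03% and 5.05% of all genes). In tumoroids 3 were higher and 12 lower (18.8% and 75%, beside 29.6% and 20.8% of all genes). Gstm1, a glutathione transferase, had 4210, 5060 and 3780 CPM in T-cM-titled, 3870, 3510 and 2840 CPM in WT-cM-titled organoids and 176, 95.5 and 193 CPM in tumoroids (0.37 ± 0.07, adjusted p = 0.001, and -4.64 ± 0.31, adjusted p = 4.4e-06). Ephx1, microsomal epoxide hydrolase, differed by 0.43 (adjusted p = 0.00079) and -0.61 (adjusted p = 0.015, but 0.14 against WT-cM-titled organoids alone), and Osgin1 by 0.39 (adjusted p = 0.0046, limma voom adjusted p = 0.068) and -3.42 (adjusted p = 1.5e-05). The close relatives of Akr1b8 differed in direction (Akr1b10, and Akr1b7 between the organoid groups, are named after their values were seen). Akr1b3, aldose reductase, was higher in T-cM-titled organoids (0.42, adjusted p = 0.004) and in tumoroids (1.85, adjusted p = 0.012), although its adjusted p against T-cM-titled organoids alone was 0.055. Tumoroid 2 had 363 CPM of it and the other two 61.1 and 60.2 CPM. Akr1b10 was higher in tumoroids (1.63 ± 0.23, adjusted p = 0.00028) and had 0.03 between the organoid groups (adjusted p = 0.96). Akr1b7 was the 1 gene of this list lower in T-cM-titled organoids (-0.33, adjusted p = 0.023, with limma voom 0.11 and DESeq2 0.076) and was lower in tumoroids (-5.34, adjusted p = 6.6e-06), although 27.2% of its exonic bases lie opposite another gene. Nqo2 (-1.66) and Mgst1 (-2.49) were lower in tumoroids. Aldh3a1, named after its values were seen, was lowly expressed in organoids, with 7, 11 and 6 reads in T-cM-titled and 0, 3 and 2 reads in WT-cM-titled libraries.

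In the thioredoxin and peroxiredoxin list of 12 genes, in T-cM-titled organoids 1 was higher and 3 lower (8.33% and 25%, beside 5.03% and 5.05% of all genes). In tumoroids 4 were higher and 4 lower (33.3% each, beside 29.6% and 20.8% of all genes). Txn1, the substrate of Txnrd1, was higher in T-cM-titled organoids (0.23, adjusted p = 0.028, limma voom adjusted p = 0.054) and lower in tumoroids (-2.11 ± 0.22, adjusted p = 4.4e-05). Its inhibitor Txnip ran opposite, at -0.41 (adjusted p = 0.0017, limma voom adjusted p = 0.062) and 0.91 (adjusted p = 0.0033). Prdx3 (-0.33, adjusted p = 0.0062) and Prdx4 (-0.48, adjusted p = 0.011, with limma voom 0.052 and DESeq2 0.091), the peroxiredoxins of mitochondria and endoplasmic reticulum, were lower in T-cM-titled organoids, while Prdx1 (-0.92) and mitochondrial Txnrd2 (-1.04) were lower in tumoroids. Of the 8 tested glutathione peroxidases and glutaredoxins, 0 passed the threshold between the organoid groups with edgeR, limma voom or DESeq2 (2 were lower at an unadjusted p under 0.05 in edgeR). In tumoroids 2 of these were higher and 4 lower (25% and 50%, beside 29.6% and 20.8% of all genes). The lower ones were Gpx1 (-1.01), Gpx4 (-1.26, with 25.2% of its transcript windows shared with another gene), Glrx (-1.35) and Glrx5 (-0.82). Of 4 genes for superoxide and peroxide removal, 0 passed the threshold between the organoid groups with any of these tools (2 were higher at an unadjusted p under 0.05). In tumoroids 3 were lower (75%, beside 20.8% of all genes), namely Cat (-3.28 ± 0.29, adjusted p = 1.9e-05), Sod1 (-1.40) and Sod2 (-0.75). Sod2 shares 12.8% of its transcript windows with another gene, and its call was lost in limma on log2(TPM + 1) (-0.23, adjusted p = 0.1), as were those of Glrx5 (adjusted p = 0.09) and Prdx1 (adjusted p = 0.06).

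Of 8 genes of heme and iron handling, in T-cM-titled organoids 2 were higher and 3 lower (25% and 37.5%, beside 5.03% and 5.05% of all genes). In tumoroids 2 were higher and 3 lower (25% and 37.5%, beside 29.6% and 20.8% of all genes). Fth1, ferritin heavy chain, had 2570, 3830 and 4740 CPM in T-cM-titled, 2130, 2880 and 3390 CPM in WT-cM-titled organoids and 605, 495 and 737 CPM in tumoroids (0.40 ± 0.07, adjusted p = 0.00014, and -2.40 ± 0.28, adjusted p = 8.6e-05). Slc48a1, a heme transporter, went the opposite way (-0.62, adjusted p = 0.0059, with limma voom 0.083 and DESeq2 0.054, and 2.47, adjusted p = 3.1e-05). Blvrb (-0.48, adjusted p = 0.012, with limma voom 0.11 and DESeq2 0.074), a biliverdin reductase, and Fech (-0.42, adjusted p = 0.0042, with limma voom 0.055), which completes heme, were lower in T-cM-titled organoids. Ftl1 (-1.14) and Hmox2 (-0.34, adjusted p = 0.032) were lower in tumoroids, but 34.4% of the windows of Ftl1 are shared with another gene. Hmox2 passed in only 10 of 22 alternatives and not against T-cM-titled organoids alone (adjusted p = 0.1). It turned positive under total-count and TPM scaling, and 40.2% of its exonic bases lie opposite another gene.

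Slc7a11 is also induced by the amino acid stress factor ATF4, so 13 ATF4 genes and targets were counted separately, 3 of which (Slc3a2, Chac1 and Sesn2) also stand in the lists above. Slc3a2 alone was higher in T-cM-titled organoids (1 of 13) and 0 were lower (1 at an unadjusted p under 0.05). In tumoroids 6 of 13 were higher and 0 lower at either p (46.2% and 0%, beside 29.6% and 20.8% of all genes), including Ddit4 (1.42 ± 0.28, adjusted p = 0.0021), Phgdh (1.5 ± 0.33, adjusted p = 0.0037, with 28.1% of its windows shared), Slc7a5 (1.46 ± 0.29, adjusted p = 0.0025) and Sesn2 (0.72 ± 0.15, adjusted p = 0.0032). Of the 13, 3 had every tumoroid above every organoid library, beside 25.6% of all genes, and Slc7a5 overlapped with the organoids. Atf4 itself, named after its values were seen, did not pass in tumoroids (-0.22 ± 0.24, adjusted p = 0.47).

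**Figure D4:**
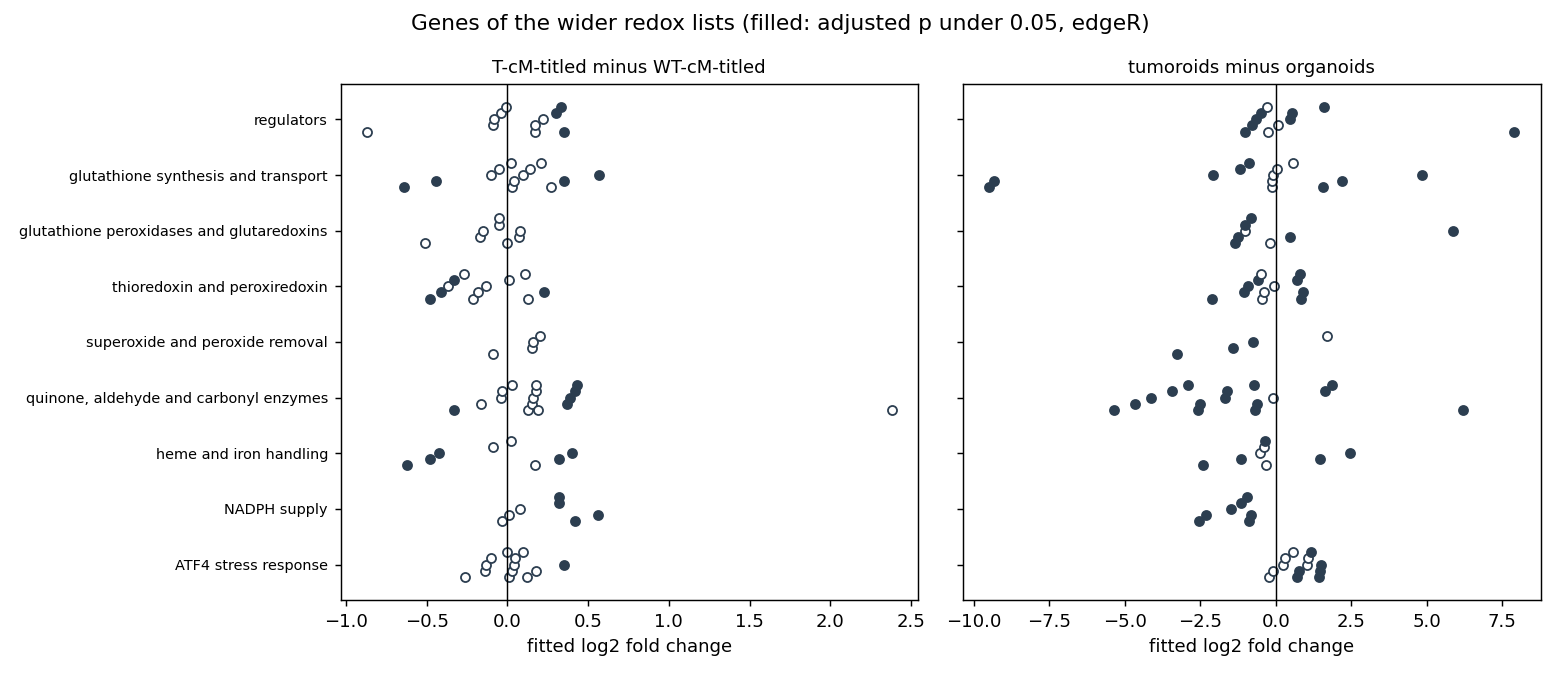
Fitted log2 fold change (horizontal axes, with a wider scale on the right) of the tested genes in 8 redox lists and the ATF4 list (rows), between the organoid groups (T-cM-titled minus WT-cM-titled, left) and between tumoroids and organoids (right), where each point is a gene and filled points have an adjusted p under 0.05 (edgeR). All 7 NADPH genes lie below 0 in tumoroids and 4 of them are filled above 0 in T-cM-titled organoids.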

How the data were processed

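Poly-A RNA of 9 libraries was sequenced in pairs. The authors aligned reads to mm10 with STAR and counted them on Gencode genes. The tool for counting and its strand setting are not given in the sources used here. The authors deposited raw counts per gene, which were tested as deposited, and TPM, which they scaled by gene length. Reads counted per library ranged from 16541635 to 25170966, a depth at which 3 reads equal 0.103 to 0.203 CPM, counting error only.

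Genes with at least 1 TPM in at least 1 library were kept (16208 of 50600). Counts were fitted with edgeR 4.0.16 (TMM, quasi-likelihood in the form before version 4, R 4.3.3), with replicate number as a block between organoid groups and without it for tumoroids. The threshold was 0.05 on p after Benjamini-Hochberg adjustment over these genes, with an absolute log2 fold change over 1 where stated. Samples were grouped by title. Same-numbered organoid libraries deviated together (correlations 0.546, 0.338 and 0.547) and were taken as pairs. The paper states that the T-cM was derived from the sequenced tumoroids, but not whether the replicate numbers match. Tumoroids were therefore not paired with organoids in the main fit. Replicates came from 3 mice for organoids and 3 for tumoroids.

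The 10 genes and all lists were chosen with earlier results of these data known. The text names the 10 genes, the regulators Nfe2l2, Keap1, Bach1 and Mafg, and from each list no more than 4 genes, those of lowest p among genes past the threshold in a comparison. Cell type markers and a few further genes fall outside this rule. Alternatives were other scalings, filters, tools (limma 3.58.1 voom, DESeq2 1.42.0, limma on log2(TPM + 1)), other blocks, single control groups and left-out libraries. Scaling to total counts was added after the data were seen. Simulated counts with known fold changes were used to test the fits. Positions are from Gencode vM21 (GRCm38). Windows of 100 bases of each transcript were matched exactly to other genes, with none shared for 8 of the 10 genes, 2.44% for Gclm and 1.55% for Gpx2. Figures were drawn with matplotlib 3.10.9 in Python 3.11.15.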

Additional observations from a re-analysis of the deposited data

How the results depend on the processing

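Between the organoid groups, counts of the 10 genes past the threshold (6 higher at adjusted p, 1 with the fold limit) were 0 and 0 with limma on log2(TPM + 1) and without the replicate block, and 6 with no fold limit. With log2(TPM + 1) and without the block, 0 of all genes were past it. The 6 became 5 with upper-quartile factors, total counts and filterByExpr, and 4 with limma voom, DESeq2 and the newer quasi-likelihood form. Of all genes, 816 were higher in the main fit. In these settings, in the same order, 737, 677 and 669 (of 12722 tested), and 314, 445 and 544 were. Leaving out 1 replicate pair gave 0 to 6, and 0 to 2 with the fold limit, the 0 without pair 2. Without pairs 1, 2 and 3, 1355, 1 and 296 of all genes were higher, and 169, 1 and 71 with the fold limit. Of the 79 redox genes, 16 higher and 9 lower became 9 and 2 with limma voom, 3 lower with DESeq2, and 0 and 0 with log2(TPM + 1) and without the block. Leaving out a pair gave 0 to 21 higher and 0 to 14 lower. Without a filter on low values 1 (Aldh3a1) was higher past the fold limit.

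In tumoroids, 0 of the 10 genes were higher, but 1 with upper-quartile factors, 2 with total counts, 2 with log2(TPM + 1) and 2 with a replicate block at adjusted p, and 0 to 1 without 1 library. Of all genes, 4795 were higher at adjusted p in the main fit, and 5426, 7297, 7675 and 5257 in these settings, in the same order. With the fold limit 3400 were, and 3686, 4759, 4174 and 3387. Lower genes of the 10 numbered 3 past the fold limit with log2(TPM + 1), and 6 to 7 without 1 library. Of all genes, 1963 were lower past the fold limit in the main fit and 1143 with log2(TPM + 1). Redox genes lower past the fold limit numbered 17 with log2(TPM + 1). With no fold limit 18 were higher and 42 lower. Leaving out a library gave 14 to 17 higher and 40 to 45 lower, and 10 to 11 and 26 to 27 with the fold limit.

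Signs turned between organoid groups for Keap1 with TPM (0.01), for Keap1 when a pair was left out (-0.08 to 0.04), for Bach1 (-0.2 to 0.03) and Nfe2l2 (-0.12 to 0.03), for Txnrd1 (-0.01 to 0.04 over 13 alternatives, -0.01 with total counts) and Srxn1 (-0.13 to 0.03), and in tumoroids for Hmox2 (0.06 with total counts, 0.18 with TPM) and Keap1 (0.1 and 0.21). The cause was not tested. In tumoroids the replicate block moved no other count by over 1.5 times. Low depth limits Nfe2l3, Aldh3a1 and Cbs in organoids and Ggt1 and Dpep1 in tumoroids, all with at most 15 reads per library there, and Gpx8, which had 0 reads in all 6 organoid libraries.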
